A study of Salmo salar with 64 samples.

Results

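A set of 194 liver genes whose transcripts were more abundant at every later sampling than before long days began was described in female Atlantic salmon (Salmo salar). The members were selected on the liver counts themselves, out of 81574 rows of the count table. Counts were taken as log2(CPM + 1), where CPM is the count scaled to a common library total of 1e+06. A row had to average more than 5 CPM in liver, lie between 0.1 and 20 times the highest mean of the other tissues, and have all 12 liver values at T2 to T4 above all 4 values at T1. The level conditions left 11717 rows and the non-overlap 1469, which were ranked by the smallest of their 3 mean rises over T1. The first 200 were kept, and 6 gene numbers named in the rule were left out, which gave the 194. The smallest rises just inside the limit were 1.15 for sephs1, 1.15 for slc43a1b and 1.14 for LOC106609208 on the log2(CPM + 1) scale, and those just outside were 1.14 for LOC106579727, LOC106578486 and LOC106588618.

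The liver groups were 4 females each at T1, just before the lights were switched to a long day that starts maturation in captive stock, and at T2, T3 and T4, sampled afterwards 2 weeks apart. The same design of 4 time points with 4 libraries each was sequenced in ovary, pituitary and brain, which makes 64 libraries. The study sampled 4 fish at each time point, and the sample titles carry the same fish labels in each tissue. The tissues are therefore not independent sets of fish. All fish were broodstock females of a single management group held under the photoperiod regime, and no group stayed on short days, so that days under long light, season and age of the fish cannot be told apart. The study left brain out of its own comparisons because dissection did not separate brain regions evenly and replicates disagreed. Brain is given here only beside the other tissues. Libraries held 20.6 to 34.9 M (mega) counts in liver, 18.6 to 30.6 M in ovary, 23 to 29 M in pituitary and 17.5 to 51.9 M in brain. In liver the T4 libraries were the deepest, at 32.7 to 34.9 M against 20.6 to 26.5 M at T1 to T3. Depth and T4 therefore cannot be told apart there.

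Hepatocyte markers, a list of 12 genes with albumin and apolipoproteins, summed to 68347 to 103644 CPM in the 16 liver libraries. Single genes of that list moved. The albumin gene alb2 had 21760 to 27140 CPM at T1 and 8536 to 20090 CPM in the later libraries, the reverse of the members. Later values of apoa1, fga and tfa overlapped their T1 values. The 9 pancreas markers summed to 8.73 to 11.5 CPM. The 10 oocyte and granulosa markers were low but moved with time, with sums of 8.03 to 12.4 CPM in T1 libraries, 5.44 to 6.33 CPM in T2 libraries, 2.14 to 3.30 CPM in T3 libraries and 1.90 to 5.11 CPM in T4 libraries, so that every later library lay below every T1 library, the reverse of the members. The 14 leukocyte markers summed to 1888 and 1875 CPM in T4 replicates 1 and 2, against 235 to 457 CPM in the other 14 libraries, and the 9 connective tissue and vessel markers to 1039 CPM in T2 replicate 1, against 156 to 374 CPM in the others. The part of these cells in the members' levels was not tested. T4 replicates 1 and 2 were also the pair of liver libraries closest to each other, with a median squared difference 3.63 times counting noise, against 4.87 to 23.9 times in the other liver pairs. That is more than counting noise, and they were counted as separate fish. In bulk tissue, fewer cells of a type and less RNA per cell cannot be told apart.

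The liver makes most of the body's new fatty acids and sterols, builds glutathione for protection against oxidants, and loads plasma and egg-yolk proteins into the secretory pathway for export. In maturing fish it also supplies the lipid and protein that growing oocytes take up. Of the 194 members, 66 have a descriptive symbol, 123 only a LOC symbol and 5 none. Among those with a descriptive symbol, 38 fell into 6 role groups, drawn up after the members were known: sterol and isoprenoid synthesis (8 genes), fatty acid and triglyceride synthesis (5), glutathione and redox (7), protein folding and glycosylation in the endoplasmic reticulum (8), amino acid and one-carbon metabolism (7) and signalling peptides (3). Other members with a descriptive symbol included genes of proteolysis (catb, cathepsin B), glycolysis (tpi1b, triosephosphate isomerase), bile acid and oxysterol metabolism (cyp7b1) and oxygen sensing (hif1an).

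Over all members, the median rise in liver was 2.19 at T2, 1.62 at T3 and 1.69 at T4 on the log2(CPM + 1) scale, against 0.16, 0.05 and 0.23 over the 11717 rows that met the level conditions. As a ratio of mean CPM, the median member stood 5.39-fold above T1 at T2, 3.82-fold at T3 and 3.77-fold at T4, with ranges of 2.54 to 256, 2.42 to 104 and 2.23 to 149. Summed over the members, transcripts took 4141, 5758, 4370 and 4624 CPM in the 4 T1 libraries, 50072, 38544, 14212 and 45773 CPM at T2, 18674, 28900, 25754 and 13880 CPM at T3 and 22251, 23524, 34346 and 21773 CPM at T4. Because the rule chose genes by this contrast, these values describe the set and carry no test. For the same reason 193 members were called higher in the edgeR fit at each of T2, T3 and T4 (adjusted P below 0.05 and absolute log2 fold change above 1), where 8.21%, 4.09% and 5.75% of all genes tested were called higher.

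The set was not equally high in all fish of a time point. T2 replicate 3 had the lowest value of its group, with a median member 1.57 above the T1 mean against 2.35 to 2.45 in the other T2 fish, and only 15 of 194 members there exceeded their T2 mean. T3 replicate 4 was the lowest at T3, at 1.21 against 1.53 to 2.06, with 27 members above their group mean. At T4 the fish lay between 1.49 and 1.98. Deviations of members from their time point mean correlated with a mean pairwise r of 0.47 over the 16 liver libraries, against 0.08 over the 11717 rows, and with 0.80 within the sterol, 0.73 within the glutathione, 0.67 within the folding, 0.56 within the amino acid, 0.52 within the fatty acid and 0.24 within the signalling group. These correlations are across genes that share libraries and depth and are given as a description.

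**Figure D1:**
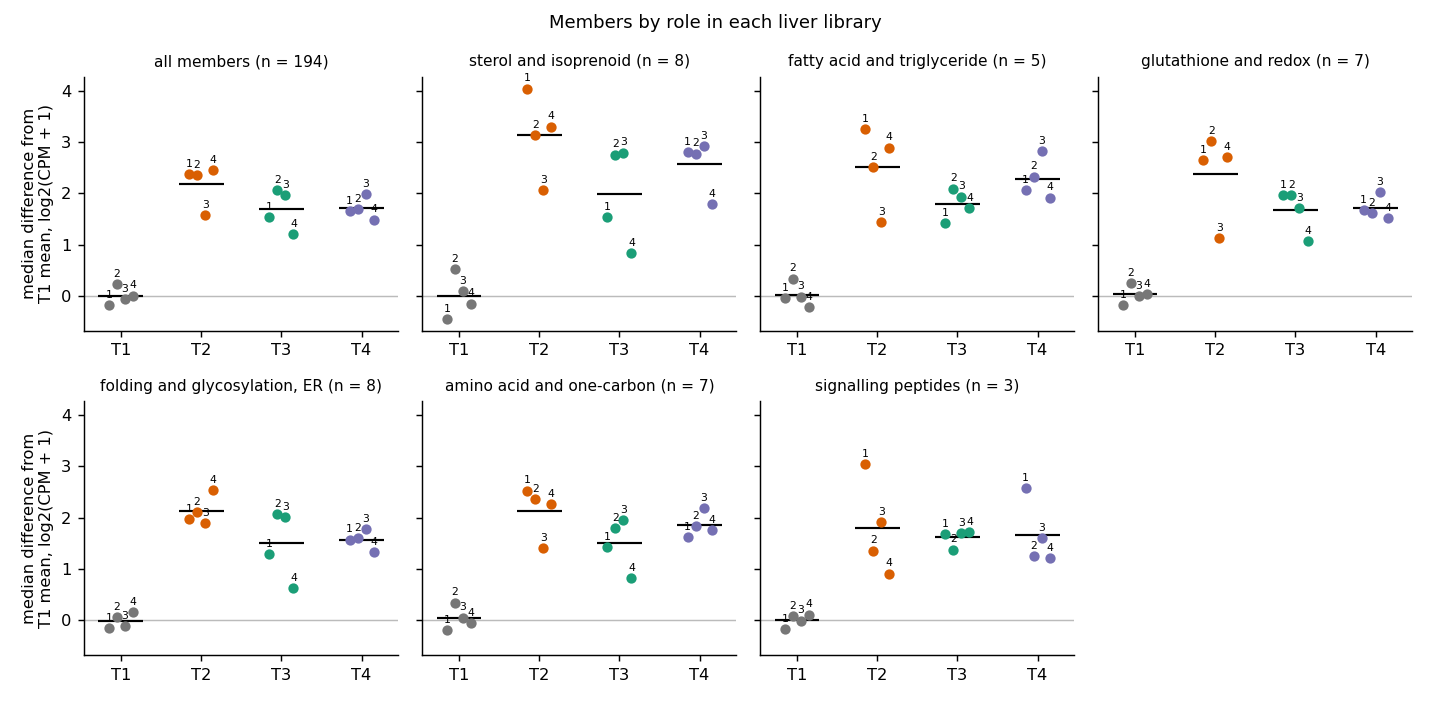
Median difference of the members from the mean of the T1 libraries on the log2(CPM + 1) scale, for all 194 members and for 6 role groups; each point is 1 liver library, the number beside it is the replicate, and bars are means of 4. The T2 points of all members lie between 1.57 and 2.45 and those of T1 between -0.17 and 0.23, with T2 replicate 3 and T3 replicate 4 lowest in their time points.

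The mean level was highest at T2 for 157 members, at T3 for 17 and at T4 for 20, and 169 members were lower at T4 than at T2. Their median difference between T4 and T2 was -0.48 on the log2(CPM + 1) scale, against 0.06 over the 11717 rows. In the edgeR fit of T4 against T2, 0 members were called higher and 5 lower, where 0.252% of all genes were called higher and 0.481% lower. The unadjusted P was below 0.05 for 0 members in the higher and 91 in the lower direction. In either direction that is 46.9% of members, beside 23.9% of all genes. The 5 were manf, LOC106613323, LOC106566596, LOC106585996 and dpp3, with log2 fold changes of -1.39, -1.28, -1.24, -1.06 and -1.02. The rule used these libraries and required a rise at each time, so nothing is read from the counts. On the log2(CPM + 1) scale the mean was higher at T4 than at T3 in 110 members and lower in 84. The share higher at T4 was 56.7%, against 70.5% over the 11717 rows. The order of T3 and T4 depended on scaling. With library totals scaled by TMM, the median rise was 1.72 at T3 and 1.53 at T4.

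Sterol and isoprenoid genes gave the largest median rise of the 6 groups at T2, T3 and T4, with 3.11, 2.16 and 2.56. Cells make cholesterol and other isoprenoids from acetyl-CoA through mevalonate, and several steps of that route were members. Hmgcs1, which makes HMG-CoA ahead of the rate-limiting reductase, had 7.03, 15.1, 10.7 and 7.49 CPM at T1, 272, 128, 63.6 and 125 CPM at T2, 24.3, 129.9, 163 and 16.8 CPM at T3 and 106, 141, 133 and 44.5 CPM at T4. Every later value lay above the highest T1 value, and the closest was T3 replicate 4 at 16.8 CPM. Mean levels were 14.6-, 8.29- and 10.5-fold those of T1 at T2, T3 and T4. Lss, lanosterol synthase, closes the sterol rings, and its libraries had 3.39, 14.5, 8.06 and 4.04 CPM at T1, 225, 199, 67.1 and 212 CPM at T2, 77.6, 120.5, 97.9 and 25.5 CPM at T3 and 150.1, 139, 137 and 54.7 CPM at T4. Its mean was 7.5 ± 5.11 CPM at T1 (SD, n = 4), 176 ± 73.2 at T2, 80.3 ± 40.6 at T3 and 120.2 ± 44 at T4.

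Idi1, isopentenyl-diphosphate isomerase, averaged 11.2 ± 5.08 CPM at T1 (SD, n = 4), 156 ± 82 at T2, 75.6 ± 53.1 at T3 and 81.3 ± 23.2 at T4. Acat2, which joins acetyl-CoA units at the head of the route, stood 12.1-, 7.44- and 6.53-fold above T1 at the 3 times. The late step gene sc5d, a sterol desaturase, had smaller mean ratios of 5.15, 3.92 and 5.12. The remaining members of this group were erg19 (mevalonate diphosphate decarboxylase, mean ratio 15.1 at T2), erg28 (3.91), a scaffold of sterol enzymes in yeast, and ngbr (3.66), the Nogo-B receptor that serves dolichol synthesis. All 8 genes were highest at T2, and 6 of 8 were higher at T4 than at T3.

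Among fatty acid genes, scdb had the highest mean CPM of all members in liver, though CPM is not corrected for gene length and does not rank genes by molecules. Stearoyl-CoA desaturase puts the first double bond into saturated fatty acids. Its libraries had 987, 1294, 859 and 979.9 CPM at T1, 9721, 5792, 2059 and 7542 CPM at T2, 2726, 4339, 3595 and 2339 CPM at T3 and 4598, 5094, 7603 and 4781 CPM at T4. No later value overlapped T1, and the lowest later library was T2 replicate 3. Elovl6, which lengthens palmitate to stearate, the substrate of that desaturase, had 55.9, 139.6, 39.7 and 55.4 CPM at T1, 1252, 1018, 194 and 1125 CPM at T2, 485, 960.1, 527 and 375 CPM at T3 and 574, 454, 771 and 547 CPM at T4. Its highest T1 library was replicate 2, and its closest later library, T2 replicate 3, still lay above that. Mean levels of elovl6 were 12.4-, 8.08- and 8.08-fold those of T1.

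Acaca encodes acetyl-CoA carboxylase, the committed step of fatty acid synthesis, and averaged 9.94 ± 1.39 CPM at T1 (SD, n = 4), 92.8 ± 32.9 at T2, 56.1 ± 32 at T3 and 51.9 ± 18.7 at T4. Fadsd5, a delta-5 desaturase of long polyunsaturated fatty acid synthesis, was 3.68-, 3.52- and 3.09-fold above T1. Gpam, the first acyltransferase of triglyceride and phospholipid synthesis, was 2.92-, 2.94- and 2.65-fold above T1. Genes that share a name with a member went either way. Elovl6l, which carries the name of elovl6 but is not a member, was lower in liver at T3 and T4. Its log2 fold changes were -1.52 ± 0.32 and -1.52 ± 0.39 (SE, edgeR adjusted P = 0.00904 and 0.0169). It was near the floor, with 0.63 to 1.31 CPM at T1, 0.28 to 0.40 CPM at T3 and 0.24 to 0.61 CPM at T4. By contrast, tpi1a was called higher alongside the member tpi1b at T2 and T3 (log2 fold changes 1.42 and 1.25, edgeR adjusted P = 0.000848 and 0.000897).

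**Figure D2:**
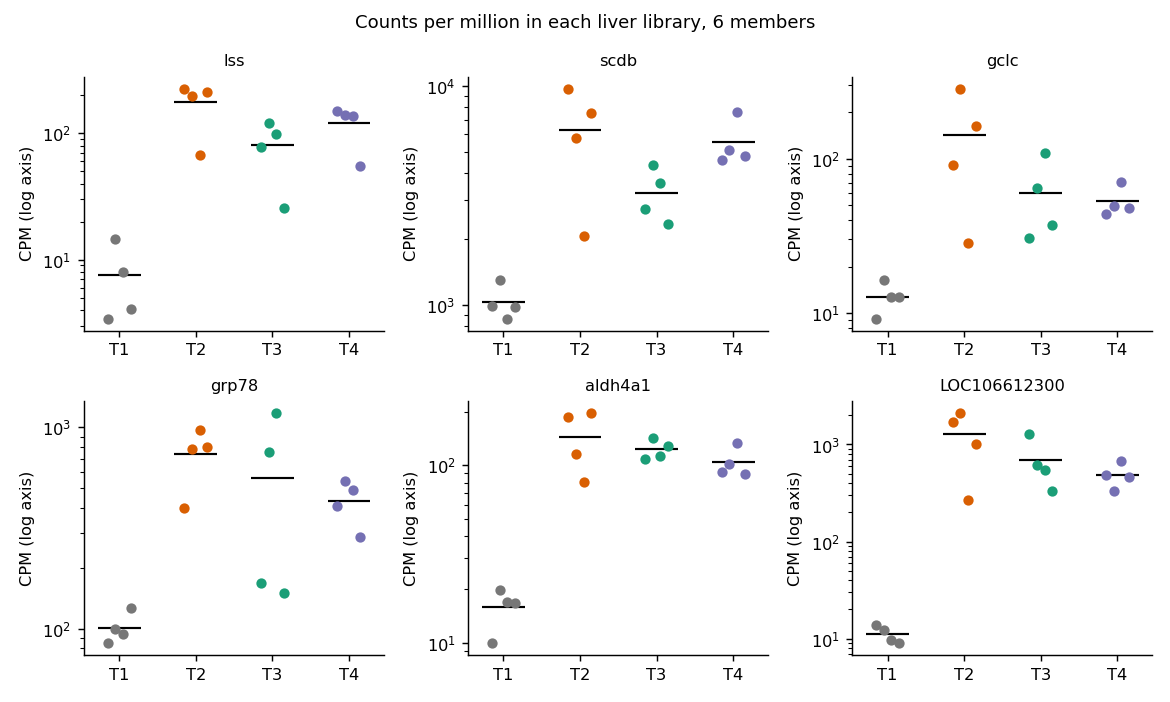
CPM on a log axis in each of the 16 liver libraries for lss, scdb, gclc, grp78, aldh4a1 and LOC106612300; points are libraries and bars are means of 4. In each panel all 12 points at T2, T3 and T4 lie above the 4 points at T1, which the rule required.

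The glutathione group is the cell's main thiol defence, and both parts of its limiting enzyme were members. Gclc, the catalytic subunit of glutamate-cysteine ligase, had 9.16, 16.3, 12.7 and 12.7 CPM at T1, 90.4, 284, 28.3 and 162 CPM at T2, 30.4, 64.6, 108 and 37.4 CPM at T3 and 43.8, 49.5, 70.7 and 47.6 CPM at T4. The regulatory subunit of the same ligase is the study's annotation of LOC106584335. It had 5.91, 8.24, 6.18 and 6.15 CPM at T1, 154, 270.0, 38.8 and 166 CPM at T2, 154, 76.7, 65.7 and 37.3 CPM at T3 and 55.6, 37, 73.5 and 51.6 CPM at T4. Both had their highest library at T2 replicate 2. The lowest later library was T2 replicate 3 for gclc and T4 replicate 2 for LOC106584335, each above all T1 values. Mean levels at T2, T3 and T4 were 11.1-, 4.74- and 4.16-fold those of T1 for gclc and 23.7-, 12.6- and 8.22-fold for LOC106584335.

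Gsr, glutathione reductase, was 6.83-, 4.24- and 4.08-fold above T1. Keap1a encodes the sensor that holds the oxidant-response factor Nrf2 in check, and was 4.43-, 3.08- and 3.26-fold above T1. The transferases gsta3 and gsto1, which conjugate glutathione to other molecules, had mean ratios of 11.3 and 5.88 at T2. The thioredoxin reductase txnrd2.2 and nnt, the mitochondrial transhydrogenase that makes NADPH, had 5.43 and 4.63. All 7 were highest at T2, and the group's median rise was 2.33 at T2, 1.68 at T3 and 1.66 at T4.

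Proteins bound for secretion fold and receive their sugars in the endoplasmic reticulum. Grp78, its main chaperone, had 84.8, 99.7, 94.2 and 127 CPM at T1, 400.2, 781, 975 and 798 CPM at T2, 168, 755, 1179 and 151 CPM at T3 and 405, 539, 489 and 286 CPM at T4. At T3 the fish split, with replicates 1 and 4 just above the T1 range and replicates 2 and 3 several times above it. Manf, a small protein induced by folding stress, had 9.16, 11, 8.91 and 12.1 CPM at T1, 71.1, 112, 90.9 and 157 CPM at T2, 43.6, 95.9, 115 and 14.7 CPM at T3 and 57.2, 43.1, 45.1 and 28.9 CPM at T4, and T3 replicate 4 again came closest to T1. Of the 5 members called lower at T4 than at T2, manf had the largest fold change.

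Pdia3, a disulphide isomerase, averaged 37 ± 8.5 CPM at T1 (SD, n = 4), 144 ± 51.7 at T2, 112 ± 55.9 at T3 and 86.4 ± 21.7 at T4. Ddost, a subunit of the complex that transfers sugar chains, was 5.87-, 3.87- and 3.35-fold above T1. The glucosidase subunit ganaba and the folding sensor uggt2, which trim and re-glucosylate those chains, had mean ratios of 4.28 and 5.27 at T2. Sdf2 and asph had 4.08 and 5.7. The group's median rise was 2.11 at T2, 1.47 at T3 and 1.56 at T4.

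Amino acid and one-carbon genes included aldh4a1, which oxidises the proline intermediate pyrroline-5-carboxylate to glutamate, and p5cr2, which makes proline from the same intermediate. Aldh4a1 had 9.93, 19.8, 16.9 and 16.9 CPM at T1, 188, 115, 80.1 and 197 CPM at T2, 109, 142, 113 and 128 CPM at T3 and 91.9, 101, 134 and 89.3 CPM at T4, a course that varied little among T3 and T4 fish. Serb, phosphoserine phosphatase of serine synthesis, had 1.21, 2.81, 1.25 and 1.53 CPM at T1, 24, 29.8, 4.49 and 38.8 CPM at T2, 13.7, 21.4, 13.6 and 2.95 CPM at T3 and 15.7, 13.4, 21.5 and 14.2 CPM at T4. Its T3 replicate 4 at 2.95 CPM was just above the highest T1 library at 2.81 CPM. Mthfd1b, an enzyme of folate one-carbon metabolism, was 2.94-, 2.47- and 2.33-fold above T1. Scpdh was highest at T3, with a mean ratio of 6.12, and the neutral amino acid transporter slc43a1b was highest at T4, with 3.47.

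The signalling group holds 3 members that encode secreted signals of vessels and growth. Esm1, an endothelial proteoglycan, had 6.35, 11.4, 8.6 and 6.64 CPM at T1, 73.5, 22.1, 43.2 and 36.2 CPM at T2, 50, 26.1, 28.2 and 42 CPM at T3 and 74.7, 20.4, 37.1 and 26.7 CPM at T4. Apln, the peptide ligand of the apelin receptor, had 2.13, 1.25, 1.52 and 2.02 CPM at T1, 31.1, 5.83, 9.2 and 4.02 CPM at T2, 7.66, 3.71, 3.77 and 7.88 CPM at T3 and 15.2, 5.5, 7.18 and 5.26 CPM at T4. For both, replicate 1 was the highest library at T2 and T4, and at T2 this was the fish with raised connective tissue and vessel markers. At T4, replicate 1 also had the highest connective tissue and vessel sum, 374 CPM against 261 to 291 CPM in the other T4 fish. Leukocyte markers were raised in both T4 replicates 1 and 2, and replicate 2 had 20.4 CPM of esm1 and 5.5 CPM of apln. The part of these cells in the level of either gene was not tested. The growth factor fgf2 was 2.63-, 3.31- and 2.61-fold above T1 and was highest at T3.

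The members of highest rank were mostly known by number alone. LOC106612300, ranked first, had 14, 12.3, 9.67 and 8.93 CPM at T1, 1685, 2109.7, 266 and 1023 CPM at T2, 1275, 615, 547 and 335 CPM at T3 and 488, 328, 672 and 464 CPM at T4, with no overlap and a later level of at least 266 CPM. LOC106587515 and LOC106570829, ranked next, were at 0.428 ± 0.526 and 1.42 ± 1.1 CPM at T1 (SD, n = 4), and their mean ratios at T4 were 149 and 46. Gene 106587495 was nearly unread at T1, with 0 to 5 counts a library, and had 23.7, 20.9, 1.26 and 12.6 CPM at T2, 7.27, 10.9, 9.53 and 3.94 CPM at T3 and 7.5, 5.8, 12.7 and 12.1 CPM at T4. LOC106589612 and LOC106610271 followed the same course as each other, with means of 166 and 70.8 CPM at T1, 6684 and 2494 at T2, 2539 and 1053 at T3, and 4167 and 1668 at T4. LOC106611136 had means of 3.44 CPM at T1, 108 at T2, 96.7 at T3 and 100.1 at T4, and LOC106584632 had 1.51, 27.7, 29.5 and 23.8 CPM at the same times, so that the means of both were nearly level after T1. For LOC106611136 the SE of the log2 fold change against T1 was 0.45 at T2, 1.00 at T3 and 0.22 at T4, so its T3 level is the least certain. Reads that fit near-identical gene copies equally well were not counted, so levels of members with a close copy are uncertain.

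On the Ssal_v3.1 assembly, 189 members could be placed. Of these, 4 pairs were next to each other in gene order (LOC106603201 and catb, LOC106609240 and LOC106609239, tbcb and LOC106612496, LOC106565240 and LOC106565239), and 2 pairs had 1 gene between them (LOC106568876 and asph, scdb and hif1an).

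To see whether the liver course was shared with genes outside the set, the other genes of 18 pathway lists were counted in the same edgeR fits. These lists hold 487 genes that are not members. They were drawn by gene symbol, so genes with only a LOC symbol are absent and the counts do not cover whole pathways. Liver calls at T2, T3 and T4 covered 8.21%, 4.09% and 5.75% of all genes in the higher and 6.65%, 3.39% and 5.21% in the lower direction. In cholesterol and isoprenoid synthesis, 5, 5 and 4 of 10 further genes were called higher and 0 lower, led by fdft1, squalene synthase, with log2 fold changes of 2.79 ± 0.25, 2.08 ± 0.59 and 2.54 ± 0.35 (SE; edgeR adjusted P = 0.000213, 0.0407 and 0.00209). In fatty acid and triglyceride synthesis 5, 3 and 2 of 19 were higher and 1, 3 and 1 lower, with lpin1a, a phosphatidate phosphatase, at 2.25 ± 0.50 at T4 (adjusted P = 0.0106). Among endoplasmic reticulum chaperones 11, 6 and 1 of 20 were higher and 0 lower, with median log2 fold changes of 1.08, 0.83 and 0.55. Among genes of protein translocation and vesicle traffic 8, 6 and 0 of 26 were higher and 0 lower, with medians of 0.81, 0.62 and 0.30. Medians over all genes were -0.0006, -0.01 and 0.06. Few calls at T4 therefore do not place these lists back at their T1 level. Over all lists, 39 genes were called at T4 in either direction, and 65 without T4 replicate 4. Of all genes tested at T4, 2909 of 26528 were called in either direction, and their share without that library was not counted.

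The remaining lists differed in their counts of calls, and differences between times were not tested. Genes with a rise or fall below the fold threshold are not in these counts. For aminoacyl-tRNA synthetases, which charge amino acids for translation, 11 of 27 were higher at T2, 1 at T3 and 3 at T4 and 0 lower, with yars1 at 2.40 ± 0.14, 1.33 ± 0.23 and 1.07 ± 0.13 (SE; edgeR adjusted P = 8.06e-05, 0.00351 and 0.00107). For proteasome subunits 10, 4 and 4 of 24 were higher and 0, 0 and 1 lower, for DNA replication and cell division 16, 4 and 5 of 51 were higher and 1, 1 and 1 lower, and for the mitochondrial ribosome 12, 2 and 2 of 52 were higher and 0 lower. In nucleotide sugars and N-glycosylation 5, 5 and 1 of 20 were higher and 1, 0 and 2 lower. Ribosome assembly genes gave 4, 0 and 0 higher and 4, 1 and 3 lower of 55. Mitochondrial import and carrier genes gave 13, 6 and 3 higher and 2, 1 and 1 lower, with 45, 45 and 46 tested. For amino acid synthesis and uptake 1, 0 and 1 of 13 were higher and 0, 0 and 1 lower. For purine and pyrimidine synthesis 3, 2 and 1 of 16 were higher and 2, 0 and 1 lower. The growth hormone and insulin-like growth factor list, with 10 genes tested, had 0 calls at each time. Clock genes had 0 higher and 2, 0 and 0 of 19 lower. Egg protein genes had 0 higher and 0, 1 and 1 of 4 lower, which was zpax1 at both T3 and T4. Glycolysis and gluconeogenesis had 2, 2 and 0 higher of 17, 17 and 18, and 0 lower. The pentose phosphate and NADPH list had 2, 0 and 0 of 7 higher and 0 lower. The list genes with the deepest falls at T4 were zpax1 and slc25a39. Zpax1, an egg envelope gene that is also among the oocyte markers, was at -1.94 ± 0.30 (SE, edgeR adjusted P = 0.00228). It was near the floor, with 2.4 to 3.9 CPM at T1 and 0.58 to 1.25 CPM at T4. Slc25a39, a mitochondrial carrier linked to glutathione import in mammals, was at -1.58 ± 0.27 (SE, edgeR adjusted P = 0.00349).

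**Figure D3:**
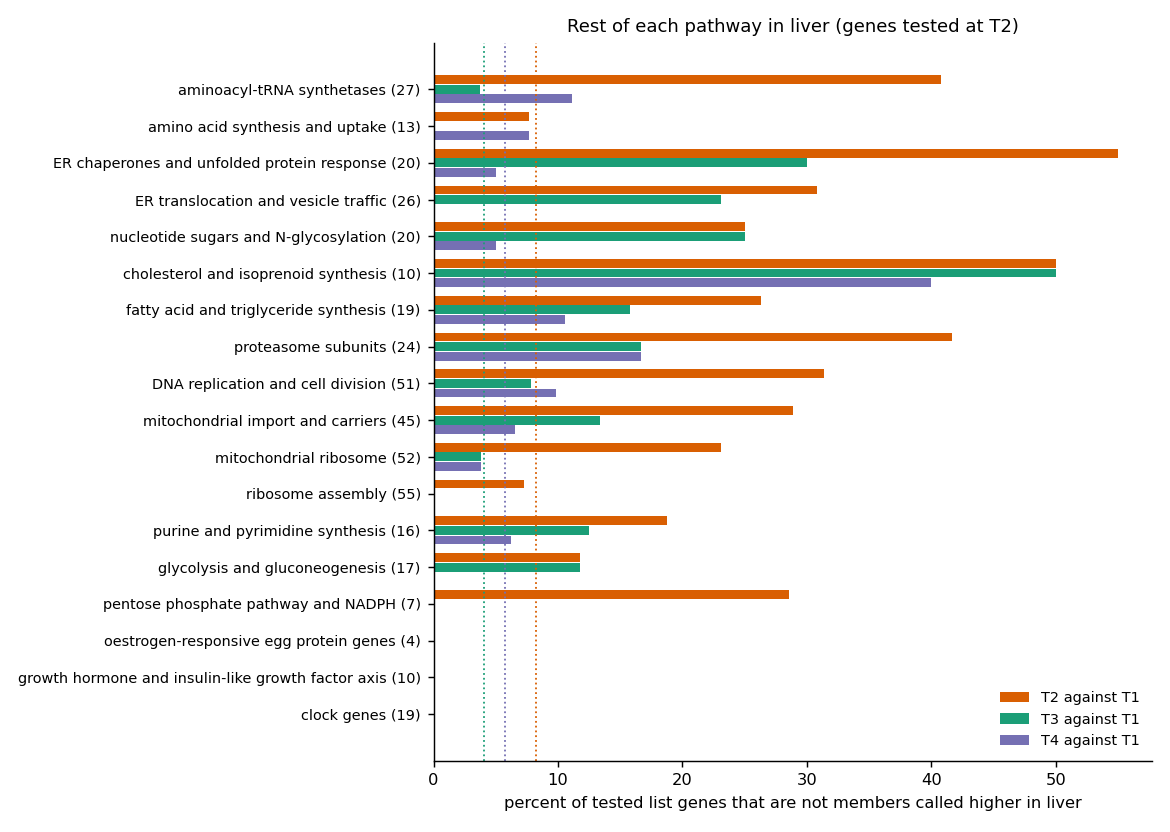
Share of the tested genes of 18 pathway lists, members left out, that were called higher in liver at T2, T3 and T4 against T1; numbers in brackets are genes tested at T2 and dotted lines are the shares over all genes (8.21%, 4.09% and 5.75%). Endoplasmic reticulum chaperones had 11 of 20 genes higher at T2 and 1 of 20 at T4, while cholesterol and isoprenoid synthesis had 5 of 10 at T2 and 4 of 10 at T4. Their median log2 fold changes at T4 were 0.55 and 0.74, so genes that stayed raised below the fold threshold are not in the bars.

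The rule used only the mean level of the other tissues, not their change over time, so there the members' change could be tested. In ovary, 187, 186 and 187 members passed the filter on low counts at T2, T3 and T4, and their median log2 fold change against T1 was -0.03, -0.04 and -0.02, against -0.01, 0.01 and 0.01 over all genes. At T2, 2 members (1.07%) were called higher, beside 0.895% of all genes. At T3, 7 (3.76%) were called higher beside 3.43% of all genes, and at T4, 15 (8.02%) beside 10.3%. No member was called lower at T2, T3 or T4, where 0.0743%, 0.0966% and 0.522% of all genes were called lower. DESeq2 called 0 members lower at each time. The unadjusted P was below 0.05 in the lower direction for 33, 25 and 34 members. In either direction it was below 0.05 for 33.7%, 28.5% and 36.9% of members, beside 25.9%, 25.8% and 37.4% of all genes. With adjusted P alone, 22 members (11.8%) were higher and 21 (11.2%) lower at T4, beside 13.9% and 7% of all genes. The shares called higher with the fold threshold lay near or below those of all genes.

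Of the members called in ovary at T4, LOC106609239 had the largest change. It had 1.94, 6.08, 3.33 and 24.3 CPM at T4, against 0.818, 0.638, 0.59 and 0.955 CPM at T1 (log2 fold change 3.57 ± 0.82 (SE), edgeR adjusted P = 0.0233). The groups did not overlap, and T4 replicate 4 was far above the other fish. Without that library the log2 fold change was 2.29, and the call was lost without each of the T1 libraries or T4 replicate 2 (adjusted P = 0.0521 to 0.0660). The study's annotation places LOC106571922 in the proteasome core. It had 1.46, 3.38, 1.02 and 9.64 CPM at T4, against 0.523, 0.504, 0.786 and 0.248 CPM at T1 (log2 fold change 2.91 ± 0.75 (SE), edgeR adjusted P = 0.0302). LOC106609208 had 3.71, 8.17, 3.76 and 21.1 CPM at T4, against 0.949, 1.78, 1.69 and 1.1 CPM at T1 (log2 fold change 2.74 ± 0.62 (SE), edgeR adjusted P = 0.0219). In all of these the same T4 fish was highest and no T4 value fell within the T1 range. Without it the log2 fold changes were 1.89 for LOC106571922 and 1.89 for LOC106609208, and they no longer passed in 5 and 4 of 8 fits, each without a single library.

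LOC106613851, a gene annotated to DNA replication, had 1.97, 4.09, 2.16 and 5.15 CPM at T4, against 0.327, 0.537, 0.825 and 0.637 CPM at T1 (log2 fold change 2.51 ± 0.43 (SE), edgeR adjusted P = 0.0140), and LOC106589464 had a log2 fold change 2.24 ± 0.47 (SE), edgeR adjusted P = 0.0177. The desaturase gene fadsd5 had 14.4, 24.3, 13.4 and 34 CPM in ovary at T4, against 8.44, 8.87, 7.47 and 8.07 CPM at T1 (log2 fold change 1.38 ± 0.30 (SE), edgeR adjusted P = 0.0202). Keap1a was called too (log2 fold change 1.39 ± 0.39 (SE), edgeR adjusted P = 0.0362), at 2.04, 3.27, 2.39 and 5.7 CPM at T4 against 1.57, 1.48, 1.22 and 0.778 CPM at T1, but it no longer passed in 6 of 8 fits without a single library, and its log2 fold change was 0.98 without T4 replicate 4. Fadsd5 no longer passed in 4 of 8. Of the 15 members called at T4, only LOC106613851 was called in all 8 such fits. The ovary counts moved when single libraries were left out. At T4 they were 1 without T1 replicate 1 and 3 without T4 replicate 2. They were 5 without T1 replicate 4 and 7 without T1 replicate 2 or 3. Higher counts came without T4 replicate 1 (20) or T4 replicate 3 (18). At T3 they were 13 without T3 replicate 4 and 0 without any other single library of either time point. Without T4 replicate 4, 12 members were called at T4. At T2, 1 member was called when any library but T1 replicate 1 or 3 was left out. How many of all genes were called in each of these fits was not counted, so nothing is read from these shifts.

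In pituitary, 186, 185 and 189 members were tested, with medians of 0.17, 0.11 and 0.10 against 0.00, -0.01 and 0.01 over all genes. At T2, 1 member was called higher beside 1.18% of all genes, at T3, 0 beside 0.828% and at T4, 4 beside 1.35%. No member was called lower by edgeR at T2, T3 or T4, beside 0.309%, 0.245% and 0.434% of all genes. The unadjusted P was below 0.05 in the lower direction for 7, 14 and 11 members and in the higher direction for 61, 47 and 61. In either direction that is 36.6%, 33.0% and 38.1% of members, beside 25.8%, 22.9% and 26.8% of all genes. DESeq2 called 0, 1 and 2 members lower and 2, 1 and 5 higher. With adjusted P alone, 23 members (12.4%) were higher and 1 lower at T2, beside 3.05% and 2.01% of all genes, at T3, 3 (1.62%) were higher and 3 lower, beside 1.84% and 0.775%, and at T4, 21 (11.1%) were higher and 2 lower, beside 3.36% and 2.41%. The changes behind these counts were small. Grp78 and ganaba were among the higher members at T2 and T4 and pdia3 at T2, and mthfd1b was lower at T4 (log2 fold change -0.44 ± 0.09 (SE), edgeR adjusted P = 0.0300).

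LOC106604089 had 7.6, 11.6, 9.05 and 12.3 CPM in pituitary at T4, against 2.18, 2.54, 1.45 and 1.85 CPM at T1 (log2 fold change 2.08 ± 0.21 (SE), edgeR adjusted P = 0.00379). All later values but 1 at T3, 2.55 CPM, lay well above T1. It was also the 1 member called at T4 in ovary and pituitary, with 6.77, 7.14, 5.88 and 5.24 CPM in ovary at T4, against 2.55, 2.65, 2.44 and 0.46 CPM at T1. The ovary call was lost in 5 of 8 edgeR fits without a single library, where adjusted P ran from 0.0400 to 0.0836. How many of all genes were called in both tissues was not counted. LOC106590208 had 4.19, 6.73, 5.62 and 5.79 CPM in pituitary at T4, against 1.87, 1.61, 2.3 and 2.73 CPM at T1 (log2 fold change 1.14 ± 0.18 (SE), edgeR adjusted P = 0.0194), and LOC106584426 was called with a log2 fold change 1.06 ± 0.24 (SE), edgeR adjusted P = 0.0393. LOC106599157 had the largest fold change (log2 fold change 3.20 ± 0.59 (SE), edgeR adjusted P = 0.0238) but few reads, with 11 to 17 counts at T4, against 0 to 3 counts at T1. Of the 4 members called in pituitary at T4, only LOC106604089 was called there whichever of the 8 pituitary libraries was left out. LOC106599157, LOC106590208 and LOC106584426 no longer passed in 5, 2 and 7 of those fits.

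Grp78 was higher in pituitary at T2 (log2 fold change 0.65 ± 0.11 (SE), edgeR adjusted P = 0.0176), and pdia3 had 208, 358, 212 and 252 CPM at T2, against 130.1, 150.1, 151 and 152 CPM at T1 (log2 fold change 0.58 ± 0.12 (SE), edgeR adjusted P = 0.0329). Of the 8 members in the folding and glycosylation group, 7 had a positive pituitary fold change at each of T2, T3 and T4, with medians of 0.42, 0.31 and 0.42, where 135 of 186, 118 of 185 and 121 of 189 members in all were positive. The fatty acid group had 5, 5 and 4 of 5 positive, with medians of 0.40, 0.23 and 0.33. The glutathione group had 4, 3 and 3 of 7 positive, with medians of 0.06, -0.01 and -0.05. In the sterol group 6, 6 and 5 of 8 were positive, in the amino acid group 4, 4 and 4 of 6 and in the signalling group 2, 2 and 2 of 3. The share of all genes with a positive fold change was not counted. Counts in pituitary also moved with single libraries: at T4, 10 members were called without T4 replicate 1, 7 without T1 replicate 4, 2 without T1 replicate 2 or T4 replicate 3, and 1 without T1 replicate 1 or T4 replicate 4. At T2, 0 were called without T1 replicate 1, 2 without T1 replicate 3 or T2 replicate 3, 3 without T1 replicate 4 and 4 without T2 replicate 1. At T3, 3 were called without T3 replicate 3 and 1 without T1 replicate 3 or 4. The share of all genes called in each of these fits was not counted, so nothing about the members is read from these shifts.

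**Figure D4:**
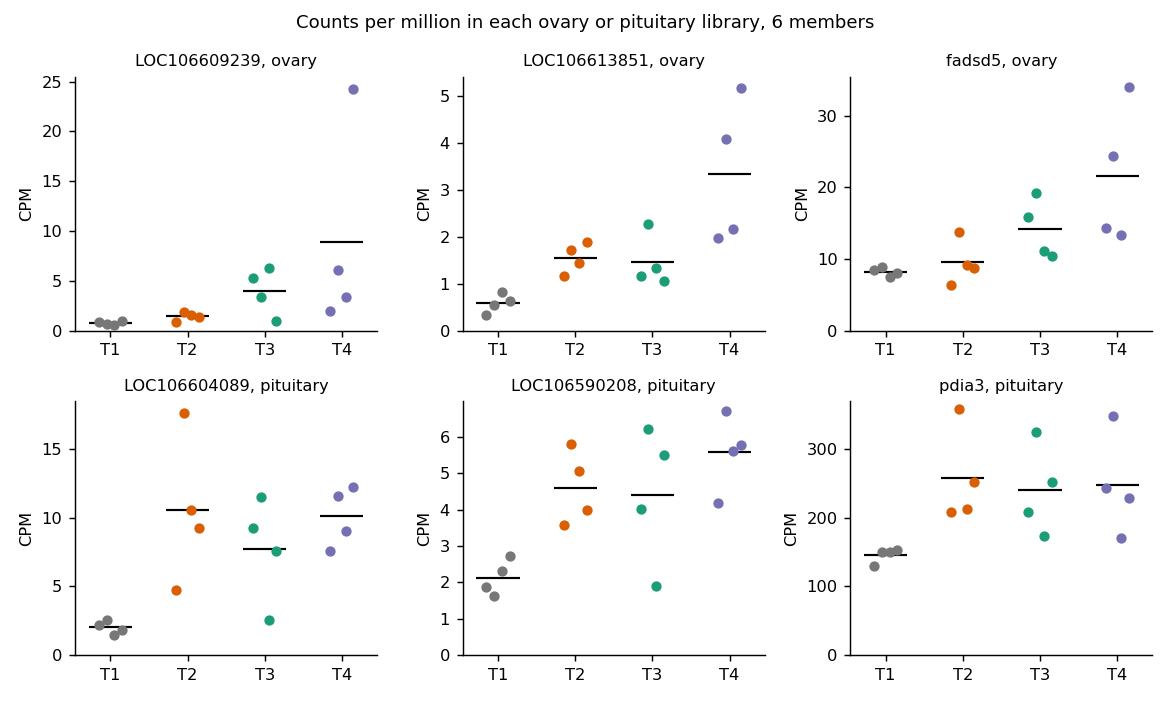
CPM in each ovary library for LOC106609239, LOC106613851 and fadsd5 and in each pituitary library for LOC106604089, LOC106590208 and pdia3; points are libraries and bars are means of 4. T4 replicate 4 is the highest ovary library for all 3 ovary genes, and LOC106604089 lies between 1.45 and 2.54 CPM in pituitary at T1 and between 7.60 and 12.3 CPM at T4.

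In brain, 191, 191 and 190 members were tested and 0 were called by edgeR at T2, T3 and T4, as were 0%, 0% and 0% of all genes. The unadjusted P was below 0.05 for 52, 5 and 14 members, which is 27.2%, 2.62% and 7.37% of those tested, beside 14.7%, 2.43% and 4.87% of all genes. DESeq2 called 1 member higher and 3 lower at T2, 0 at T3 and 1 higher at T4. Median fold changes were -0.05, -0.02 and -0.04. Of all members tested, 89 of 191, 88 of 191 and 80 of 190 had a positive brain fold change at T2, T3 and T4. The role groups went either way. Positive were 8, 4 and 4 of 8 in the folding group and 1, 1 and 1 of 8 in the sterol group. In the fatty acid group 0, 1 and 1 of 5 were positive, and in the signalling group 0, 0 and 1 of 3. The glutathione group had 4, 3 and 4 of 7 and the amino acid group 4, 4 and 3 of 7.

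**Figure D5:**
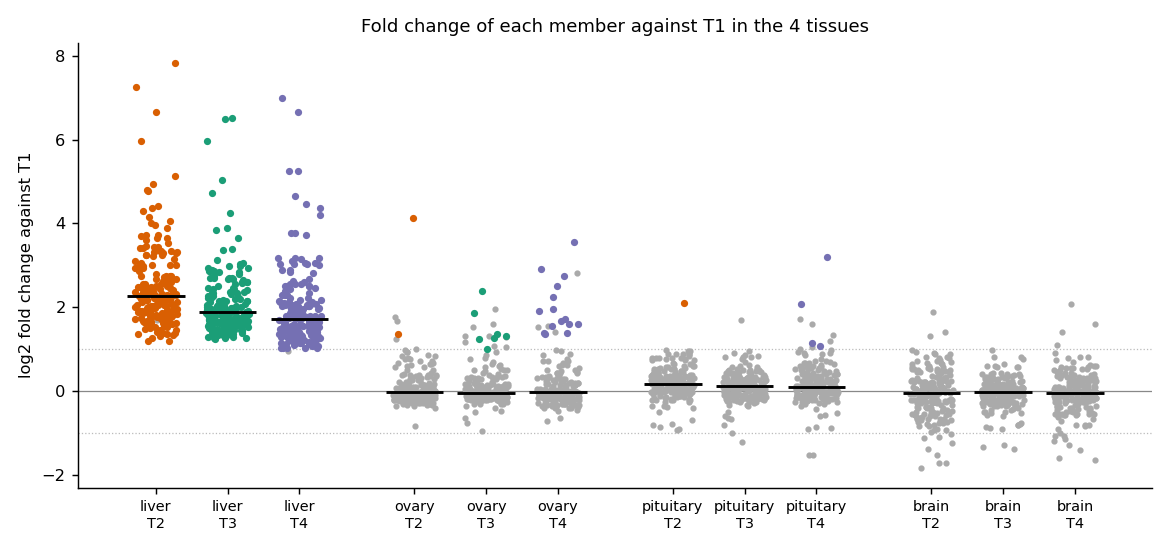
Log2 fold change of each member against T1 at T2, T3 and T4 in liver, ovary, pituitary and brain from edgeR; coloured points were called, grey points were not, black bars are medians and dotted lines mark a log2 fold change of 1 either way. Liver medians are 2.28, 1.90 and 1.71 by the rule's own choice, and those of the other tissues lie between -0.05 and 0.17.

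The order of tissues changed with the rise in liver. At T1, 98 members had their lowest mean CPM of the 4 tissues in liver and 19 their highest. At T2, 13 had their lowest and 104 their highest there, at T3 29 and 75, and at T4 32 and 80. These counts follow in part from the rule, which required a rise in liver.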

How the data were processed

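Mapping by the authors was done with TopHat2 2.1.1 on the ICSASG_v2 salmon assembly, and exon reads with 1 unique position were assigned to genes by HTSeq 0.7.2 with regard to strand. The deposited table holds whole-number counts per gene for 64 libraries, without pooling. A second deposited table of log2 values was not used, and 0 columns had no sample. Rows were keyed on the full row name, since 24016 rows share a gene number with another row. None of the members does. Symbols came from the RefSeq table of Ssal_v3.1, an assembly other than that of the files.

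CPM was the count divided by all counts of the library and scaled to 1e+06, used for the rule and for descriptions with a pseudocount of 1. Tests used edgeR 4.0.16 in R 4.3.3 on the 8 libraries of 2 time points in 1 tissue (filterByExpr, TMM, robust glmQLFit and glmQLFTest), with Benjamini-Hochberg adjustment over all genes tested. A gene was called at adjusted P below 0.05 and absolute log2 fold change above 1. DESeq2 1.42.0 was an alternative.

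The members, gene lists and tests were chosen with earlier results of these data known. Liver comparisons with T1 chose the members and carry no test. Named were the 10 members of highest rank, members of pathway lists, the 5 largest changes among members called at T4 in each other tissue, the members nearest the rule's limit, the member of highest mean CPM, and the extreme list genes at T4. Members of the role groups and the genes lower from T2 to T4 were named after their values were seen, as were list genes other than fdft1, lpin1a, zpax1 and slc25a39. Replicates within a tissue are separate fish, so P-values weigh a difference between time points against the spread between fish within a group. Each time point was sampled once, so they do not cover variation between sampling days. Near-identical copies and promoter sequences were not analysed here.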

Additional observations from a re-analysis of the deposited data

Results flagged for a closer look

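In groups of 4 libraries, 19 of 260 groups examined had a library that stood apart from the other 3 by a gap test, where chance gives about 1 in 20. Among liver members, the library of T1 replicate 2 was apart on the high side for LOC106587515 (1.21 CPM), elovl6 (139.6 CPM), LOC106609239 (7.68 CPM) and LOC106584335 (8.24 CPM), and T1 replicate 3 for tpi1b (30.0 CPM). T2 replicate 3 was apart on the low side for lss (67.1 CPM), LOC106571922 (20.1 CPM) and the median difference of all members from T1 (1.57 on the log2(CPM + 1) scale), and T2 replicate 2 was high for LOC106609239 (204 CPM). T3 replicate 1 was low for LOC106584426 (14.4 CPM). T4 replicate 4 was low for lss (54.7 CPM) and idi1 (46.8 CPM), and T4 replicate 3 was high for scdb (7603 CPM) and for the summed level of all members (34346 CPM).

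Outside liver members, pituitary T1 replicate 1 was low for pdia3 (130.1 CPM) and ovary T1 replicate 4 was low for LOC106604089 (0.46 CPM). In the marker lists, connective tissue and vessel genes were high in liver T2 replicate 1 (1039 CPM), and erythrocyte genes were high in T2 replicate 3 (58.1 CPM) and low in T4 replicate 4 (24.2 CPM).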

How the results depend on the processing

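The rule kept 148 to 186 of the 194 members under other scalings (TMM 154, RLE 152), other pseudocounts (0.5 gave 186, 5 gave 148) or no minimum level (183), 157 to 187 without single liver libraries, and 180 without T4 replicates 2 and 4, a setting chosen after seeing the data. Median rises with single libraries left out lay between 2.09 and 2.34 at T2, 1.51 and 1.83 at T3, and 1.61 and 1.78 at T4. They were 2.08, 1.72 and 1.53 with TMM-scaled CPM and 2.05, 1.67 and 1.48 with RLE-scaled CPM. In both scalings T4 lay below T3, the reverse of the order in CPM alone. Counts of members called outside liver depended on the choices. With adjusted P alone they were 14, 10 and 43 in ovary at T2, T3 and T4 and 24, 6 and 23 in pituitary. DESeq2 gave 5, 12 and 21 in ovary, 2, 2 and 7 in pituitary, and 4, 0 and 1 in brain. The share of all genes called by DESeq2, or by edgeR without single libraries, was not counted. Without single libraries the counts ran from 1 to 2, 0 to 13 and 1 to 20 in ovary, from 0 to 4, 0 to 3 and 1 to 10 in pituitary, and stayed at 0 in brain. The cause was not tested.

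For genes of the pathway lists in liver, 121, 53 and 39 were called in either direction at T2, T3 and T4, and 235, 134 and 183 with adjusted P alone. Of all genes tested, 3779 of 25419, 1904 of 25431 and 2909 of 26528 were called in either direction. Neither the genes tested over all lists together nor all liver genes passing adjusted P alone were counted, so nothing is read from these totals. Single libraries left out gave 108 to 152, 39 to 73, and 26 (without T4 replicate 3) to 65 (without T4 replicate 4). With the replicate number as a replicate block, 1, 0 and 13 members were called in ovary (keap1a no longer, edgeR adjusted P = 0.0816). In pituitary 1, 1 and 6 were called, and in brain 0 at each time. The block gave 117, 50 and 38 list genes called in liver. The share of all genes called with the block was not counted. Fish of different time points share only a number. Correlations of same-numbered libraries' deviations ran from -0.22 to 0.33 in liver, ovary and pituitary. In brain, where replicates disagreed, they ran from -0.77 to 0.80. Members with few counts, such as LOC106599157 in pituitary, are limited by depth.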
